A study of Mus musculus with 8 samples.

Results

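Mitochondria carry their own ribosome, which translates the few proteins encoded by mitochondrial DNA, all of them membrane subunits of the respiratory chain and of ATP synthase. Its RNA is made inside the organelle, but every one of its proteins is encoded in the nucleus, made in the cytosol and imported. Large-subunit proteins (Mrpl genes) surround the site where peptide bonds form, and small-subunit proteins (Mrps genes) hold the messenger RNA and the decoding site. Some have counterparts in the bacterial ribosome and others exist only in mitochondria. Adipocytes build up mitochondria as they differentiate, and use them to make the precursors of lipid synthesis as well as ATP.

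The genes described here were those whose symbol in the array annotation begins with Mrpl or Mrps followed by a digit, 76 of the 18193 genes measured. By symbol, 47 belonged to the large and 29 to the small subunit. Each gene was read from the probe set (a group of short probes for 1 transcript) that carried that symbol alone and had the highest mean over the 8 arrays. They lay on 17 chromosomes. Mrpl30 and Mrpl53 appeared only on probe sets that also named another gene, and were left out.

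The cells were 3T3-L1 adipocytes, fat cells grown from a mouse fibroblast line and then treated in 3 ways that are used to induce insulin resistance. Chronic insulin (CI) had 2 arrays, tumour necrosis factor (TNF), an inflammatory cytokine, had 3, and dexamethasone (Dex), a synthetic glucocorticoid, had 3. All 8 samples also received the antioxidant MnTBAP in the final 6 hours. The authors cite their earlier work, in which MnTBAP restored insulin-driven movement of the glucose transporter GLUT4 in every model. The arrays do not measure insulin response. Neither untreated cells nor cells without MnTBAP were analysed here. A lower value in TNF than in CI is therefore equally a higher value in CI. It was asked how the 3 models differed in these genes, and whether the large and the small subunit differed from each other. Differences are on the log2 scale of intensity, each with its standard error (SE) from the fit. A gene was called higher or lower only where limma's adjusted p was under 0.05 and the difference exceeded 0.5. The 3 comparisons share arrays and are not independent of each other.

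The labels name the tissue as preadipocytes and the source as adipose cells. The adipocyte genes Adipoq (14.31 to 14.39 log2 intensity) and Fabp4 (14.37 to 14.45) were close to the top of the scale in every array, and the preadipocyte gene Dlk1 was also bright (12.00 to 13.10). Pearson's r of log2 intensity over probe sets was 0.9958 to 0.9978 within models and 0.9856 to 0.9911 across them, and the median intensity of an array was 124.7 to 130.97. In bulk RNA, fewer cells of a type and less RNA per cell cannot be told apart.

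Promoters are shown first, because the factors NRF1, the ETS factor GABP (also called NRF2) and YY1 are known regulators of nuclear genes for mitochondrial proteins. RefSeq windows on GRCm38.p6, from 250 bases before to 50 after the start, were found for 67 of the 76 members. They were searched on both strands for GCGCATGC (a core of the NRF1 motif), CCGGAAGT (ETS) and AAGATGG (YY1). NRF1 letters were in 8 members (11.9%, against 2.8% of all 27025 genes in the table), ETS letters in 11 (16.4% against 4%) and YY1 letters in 13 (19.4% against 6.48%). At least 1 of the 3 was in 28 members (41.8% against 12.5%). In 8 of the 13 members with YY1 letters a match began 11 to 36 bases after the start. Median GC content was 58.3% in the members' windows and 52.7% in all. A match describes letters in a window and is not a binding site, and its share was not adjusted for GC content. Of the 16 members called lower in TNF than in CI, 1 had ETS letters, 2 NRF1 letters and 6 YY1 letters. Of the 51 members with a window that were not called, 10, 6 and 7 had them. No link between letters and calls was tested. The 3 stretches below, the 120 bases just before the start, belong to genes called lower in TNF than in CI and were chosen after the matches were seen, as examples with ETS letters, with NRF1 letters and with neither. Capitals mark the matched letters; in Mrpl32 the first run of capitals holds 2 overlapping NRF1 matches, 1 on each strand.
Mrps22, chr9:98601680-98601799, minus strand: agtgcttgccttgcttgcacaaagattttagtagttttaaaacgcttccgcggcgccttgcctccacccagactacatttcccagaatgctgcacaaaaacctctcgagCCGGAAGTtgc
Mrpl32, chr13:14613038-14613157, minus strand: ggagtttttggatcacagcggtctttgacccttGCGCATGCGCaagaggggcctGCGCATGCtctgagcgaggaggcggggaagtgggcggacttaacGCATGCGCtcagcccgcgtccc
Mrpl20, chr4:155802758-155802877, plus strand: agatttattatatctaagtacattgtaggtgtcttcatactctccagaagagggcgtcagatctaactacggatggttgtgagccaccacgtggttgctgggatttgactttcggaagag

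In TNF against CI, nearly all mitochondrial ribosomal protein genes had a difference below zero. Of the 76 members, 16 (21.1%) were called lower and 0 higher, against 5.23% of all genes called lower and 3% called higher. All 76 members were brighter than the median gene, with a median level of 10.55 log2 intensity against 7.92 over all genes. The shares of all genes given here and below therefore include many dimmer genes. The median difference over the members was -0.39 (quartiles -0.49 and -0.15), against 0.03 over all genes. Below zero were 75 members (98.7%, against 44.8% of all genes), and the exception was Mrpl23 at 0.08 ± 0.10 (limma adjusted p = 0.601). At an adjusted p under 0.05 with no minimum size, 46 members were lower (60.5%, against 13.3% of all genes) and 0 higher. The groups did not overlap, with TNF below CI, in 57 members, against 24.7% of all genes.

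**Figure D1:**
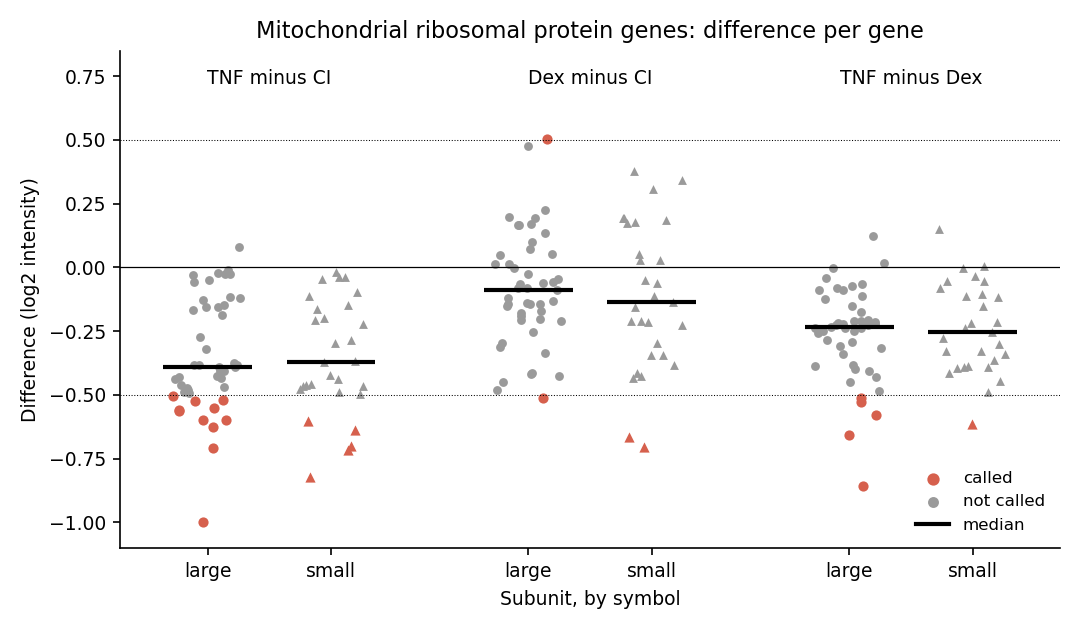
Difference in log2 intensity (y axis) of each of the 76 genes, by subunit (x axis) and comparison; circles are large-subunit and triangles small-subunit genes, red marks called genes, bars are medians and dotted lines lie at the 0.5 threshold. In TNF minus CI all points but Mrpl23 lie below 0, with medians of -0.39 (large) and -0.37 (small); in Dex minus CI they lie on both sides of 0.

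The threshold cut through the body of the distribution. The difference of 13 members lay between -0.50 and -0.45, just short of it, and that of 3 members between -0.55 and -0.50. The count moved with single arrays. Leaving out CI replicate 2 gave 10, leaving out CI replicate 1 gave 26 and leaving out TNF replicate 2 gave 30, while the median difference stayed between -0.45 and -0.33 when any array was left out. With quantile normalization the count was 10 and with each array centred on its median 29. The share of all genes called under each of these settings is not given. A change in the members is thus not separated here from a change in calling over all genes.

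Among large-subunit genes, the largest difference was in Mrpl20 (chromosome 4, 155802878 to 155808831), the counterpart of a bacterial protein that binds large-subunit RNA. Its log2 intensity was 11.65 and 11.78 under CI, 10.42, 10.98 and 10.74 under TNF and 11.18, 11.10 and 11.33 under Dex. The 3 groups did not overlap, with CI highest and TNF lowest. TNF was lower than CI by 0.998 ± 0.137 (limma adjusted p = 0.000438).

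Mrpl12 (chromosome 11, 120484637 to 120488754) forms the stalk that recruits translation factors, and its protein is also known to bind the mitochondrial RNA polymerase. It read 11.14 and 11.32 under CI, 10.19, 10.82 and 10.55 under TNF and 11.08, 10.99 and 11.22 under Dex. TNF lay below both other groups, which overlapped. The difference from CI was -0.71 ± 0.15 (limma adjusted p = 0.00561), and without CI replicate 2 the call was lost (-0.62, adjusted p = 0.0699). Mrpl10, which anchors that stalk, differed by -0.49 ± 0.08 (adjusted p = 0.0013), just short of the size threshold, with 11.08 in each CI array and 10.47, 10.70 and 10.59 in TNF.

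Mrpl37, a protein found only in the mitochondrial ribosome, read 9.68 and 9.64 under CI, 8.85, 9.20 and 9.06 under TNF and 9.21, 9.14 and 9.38 under Dex, and TNF was lower than CI by 0.63 ± 0.11 (limma adjusted p = 0.00169). The other large-subunit genes called lower, named here after their values were seen, were Mrpl57 (-0.60), Mrpl39 (-0.60), Mrpl1 (-0.56), Mrpl42 (-0.56), Mrpl21 (-0.55), Mrpl35 (-0.52), Mrpl49 (-0.52) and Mrpl32 (-0.50). The last 6 of these were not called with quantile normalization. Without CI replicate 2, Mrpl1, Mrpl32, Mrpl35 and Mrpl49 were not called, and without TNF replicate 1, Mrpl21, Mrpl32, Mrpl35, Mrpl42 and Mrpl49 were not. Mrpl49 was also lost without CI replicate 1, Mrpl32 without TNF replicate 3 and Mrpl35 with array weights. Mrpl1 and Mrpl21 were also lost where probe sets without shared sequence were preferred. Here and below, shared sequence was read only from an s, x or a suffix in the probe set name. Such a suffix does not by itself mean a match to another gene. Mrpl39 had the tightest arrays of these other genes called lower, with 11.90 in each CI array and 11.34, 11.23 and 11.35 in TNF. Of the genes described whatever their value, Mrpl44, which carries a ribonuclease III-like fold, differed by -0.38 ± 0.09, Mrpl41 by -0.38 ± 0.10, and Mrpl3, which lies close to the site of peptide bond formation, by -0.17 ± 0.09 (adjusted p = 0.222). Mrpl36 was nearest to the large-subunit median, at -0.39 ± 0.11. Mrpl55, the member with the dimmest probe set, differed by -0.02 ± 0.12.

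Among small-subunit genes, Mrps22 (chromosome 9, 98588730 to 98601679) led. It is specific to mitochondria, and inherited mutations in it are a known cause of respiratory chain deficiency. It read 10.57 and 10.54 under CI, 9.49, 9.95 and 9.76 under TNF and 9.80, 9.71 and 10.04 under Dex. Both other models lay below CI and overlapped each other. TNF was lower than CI by 0.82 ± 0.13 (limma adjusted p = 0.00102), or 1.77-fold.

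Mrps25 (chromosome 6, 92169512 to 92184023), also specific to mitochondria, had the same arrangement, with 10.37 and 10.47 under CI, 9.59, 9.77 and 9.75 under TNF and 9.74, 9.63 and 9.90 under Dex. Its difference between TNF and CI was -0.72 ± 0.09 (limma adjusted p = 0.000344). Mrps5 (chromosome 2, 127587426 to 127603986), the counterpart of a bacterial protein that bears on the accuracy of decoding, read 9.99 and 10.11 under CI, 9.10, 9.53 and 9.43 under TNF and 9.81, 9.94 and 9.77 under Dex. Here TNF stood below both other models, and it differed from CI by -0.70 ± 0.12 (adjusted p = 0.00149).

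Mrps31, another protein specific to mitochondria, was lower in TNF than in CI by 0.60 ± 0.09 (limma adjusted p = 0.000745), with 10.61 and 10.59 in CI and 9.93, 10.05 and 10.01 in TNF. Mrps11, whose bacterial counterpart sits on the platform of the small subunit, was lower by 0.64 ± 0.14 (adjusted p = 0.00671). Its call was lost when CI replicate 2 (-0.54, adjusted p = 0.0822) or TNF replicate 1 (-0.48) was left out. Mrps11 lies 41 bases from Mrpl46 on chromosome 7, the pair being read in opposite directions, and Mrpl46 differed by -0.43 ± 0.09 (adjusted p = 0.00686), under the size threshold. Mrps12, which sits at the decoding site and was nearest to the small-subunit median, differed by -0.37 ± 0.08, Mrps35 by -0.44 ± 0.09, Mrps2 by -0.20 ± 0.07 (adjusted p = 0.0678) and Mrps16 by -0.04 ± 0.12 (adjusted p = 0.843). Mrps6, the member with the brightest probe set, read 13.07 and 13.02 under CI, 12.79, 12.75 and 12.74 under TNF and 12.61, 12.59 and 12.62 under Dex. Its difference between TNF and CI was -0.28 ± 0.07 (adjusted p = 0.0117), and Dex was lower still.

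**Figure D2:**
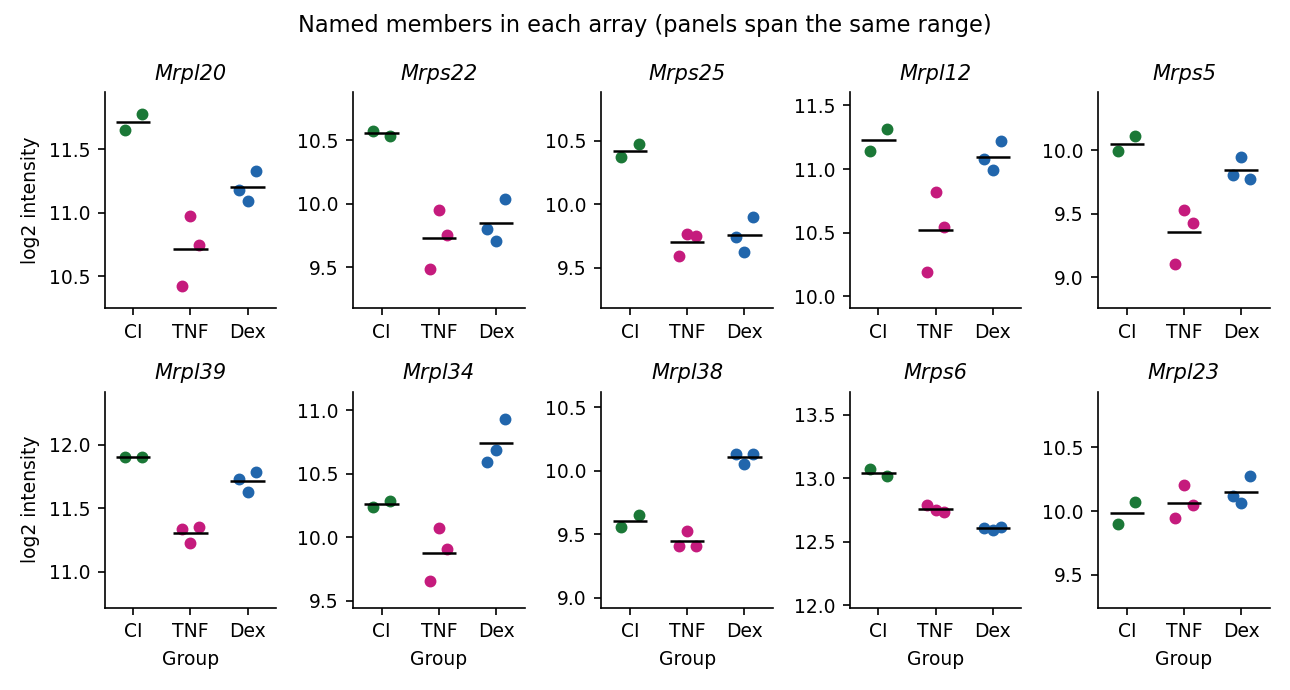
Log2 intensity (y axis) of 10 genes in each array, by model (x axis); points are arrays, bars are group means, and every panel spans the same range. TNF is lowest in Mrpl20, Mrpl12, Mrps5, Mrpl39 and Mrpl34, TNF and Dex overlap below CI in Mrps22 and Mrps25, Dex stands apart above in Mrpl38, and Mrpl23 shows no separation of TNF from CI.

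Both subunits had close values in TNF against CI. Of the large subunit, 11 of 47 genes were called lower with a median difference of -0.39, and of the small subunit 5 of 29 with a median of -0.37, so that the medians differed by -0.02. Averaged over the genes of each array, large minus small subunit was -0.03 ± 0.01 in CI (SD, n = 2), -0.02 ± 0.02 in TNF (n = 3) and 0.00 ± 0.02 in Dex (n = 3). By array it was -0.02 and -0.04 under CI, -0.0065, -0.02 and -0.04 under TNF, and 0.01, -0.02 and 0.01 under Dex, so that all 3 models overlapped. Structures place Mrps30 and Mrps18a in the large subunit despite their names, and Mrps36 is now assigned to the oxoglutarate dehydrogenase complex. These 3 differed between TNF and CI by -0.37 ± 0.08, -0.10 ± 0.08 and -0.47 ± 0.10. With the first 2 moved to the large subunit and Mrps36 left out, the medians differed by 0.01. Genes were also split by bacterial counterpart, mostly by the number in the symbol, with Mrps18a and Mrps18b put among those without one. Those set down with a counterpart (43) and the rest (33) each held 8 genes called lower, and both medians were -0.39.

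The members moved together from array to array. Their mean log2 intensity was 10.69 and 10.79 under CI, 10.25, 10.51 and 10.41 under TNF, and 10.62, 10.57 and 10.75 under Dex. Every TNF array lay below every CI and Dex array, and CI and Dex overlapped. Within TNF, replicate 1 had the lowest value for 68 of the 76 members and replicate 2 the highest for 67. Within CI, replicate 1 was the lower for 67, and within Dex, replicate 2 was the lowest for 59 and replicate 3 the highest for 62. The 76 genes are thus not 76 separate readings of a treatment. The 44 genes picked by cytosolic ribosomal protein symbols averaged 12.42 ± 0.02 in CI (SD, n = 2), 12.46 ± 0.01 in TNF and 12.46 ± 0.03 in Dex (n = 3 each). They ran from dim, as Rps16 (5.14 to 5.53), to near the top of the scale, as Rps28 (14.07 to 14.23). Whether differences are compressed near the top was not tested.

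**Figure D3:**
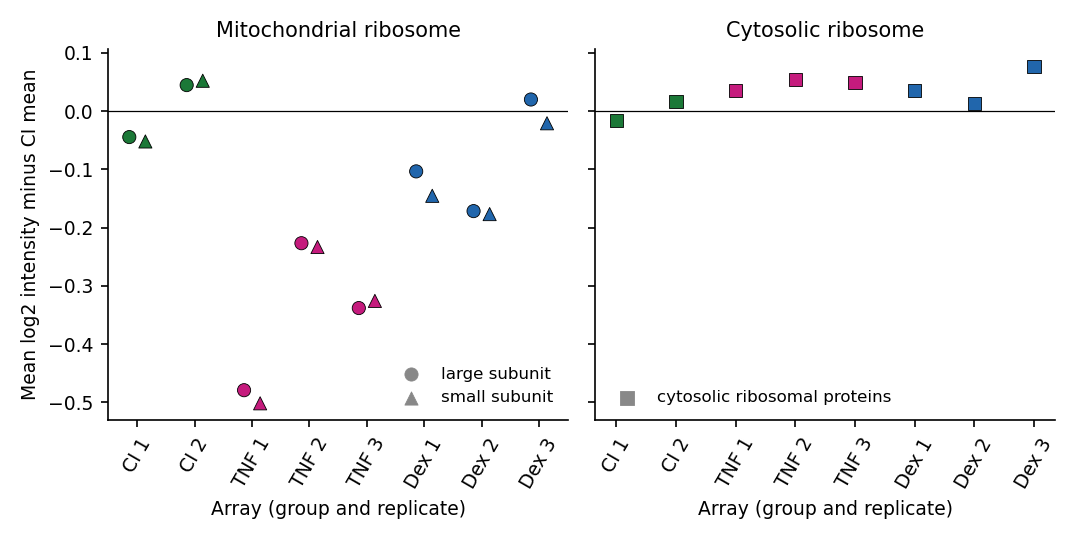
Mean log2 intensity of the large-subunit and small-subunit genes (left) and of 44 genes with cytosolic ribosomal protein symbols (right) in each array (x axis), minus the mean of the CI arrays (y axis); each point is 1 array. TNF arrays lie lowest for both mitochondrial subunits, which track each other in every array, while the cytosolic genes stay within 0.1 of CI.

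Values that moved with the TNF group are given beside this result. The 3′ minus 5′ difference of the beta-actin control probes, which grows as RNA is degraded, was 0.66 and 0.54 under CI, 0.74, 0.71 and 0.83 under TNF and 0.49, 0.49 and 0.75 under Dex, so it was highest in TNF against CI. For the Gapdh control probes the same difference was 0.163 and 0.143 under CI and 0.079, 0.120 and 0.138 under TNF. Under Dex it was 0.106, 0.069 and 0.076. Between TNF and CI the controls thus went in opposite directions. With the beta-actin difference as a covariate, 24 members were called lower in TNF against CI and the median difference was -0.44. Of the 7 adipocyte markers measured, 3 were lower in TNF than in CI, namely Retn (-0.95), Cidec (-0.85) and the insulin-responsive glucose transporter Slc2a4 (-0.63), and the mean log2 intensity of the list was 13.65 to 13.66 in CI, 13.22 to 13.30 in TNF and 13.54 to 13.60 in Dex. Of 5 preadipocyte or fibroblast markers, Pdgfrb was higher (0.93), and the list's mean was 10.002 to 10.021 in CI, 10.19 to 10.47 in TNF and 9.66 to 9.69 in Dex. The other 4 were not called, with Pdgfra at 0.70, Cd34 at 0.21, Dlk1 at 0.12 and Thy1 below zero at -0.29. Of 8 macrophage or leukocyte markers, Cd14 (1.44) and Lyz2 (0.55) were higher, with list means of 6.90 to 6.93 in CI, 7.196 to 7.241 in TNF and 6.99 to 7.06 in Dex. The other 6 were not called, and 2 of the 8 were below zero. The leukocyte gene Ptprc stayed between 4.46 and 4.77 in all arrays. No array reads 0, and the part of these markers in the result was not tested.

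The probe set that stands for a gene mattered. The 76 genes had 156 probe sets in all, and 42 genes had more than 1. In 19 of these 42, all probe sets of the gene had the same sign in TNF against CI. Of the 120 probe sets brighter than the median gene, 112 were below zero (median -0.36), and of the 36 at or under it, 16 were (median 0.01). In Mrps5, for example, the chosen probe set and the next brightest gave -0.70 and -0.61, and the other 3 lay between -0.13 and 0.16. In Mrpl44 all 4 probe sets lay between -0.65 and -0.36. Averaging the probe sets of each gene left 10 members called lower, with a median difference of -0.28, and Mrps5 (-0.27), Mrps11 (-0.28), Mrps31 (-0.30), Mrpl1, Mrpl21, Mrpl42 and Mrpl49 were then not called.

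In Dex against CI, few members were called. Lower were 3 of 76 (3.95%, against 5.67% of all genes) and higher was 1, against 3.33% of all genes, so the share called was no greater than among all genes. The median difference was -0.12 over the members and 0.02 over all genes, and 50 members (65.8%, against 45.5%) were below zero. Without a minimum size, 15 were lower (19.7%, against 12.4% of all genes) and 3 higher, against 1675 of all 18193 genes. In 30 members the groups did not overlap with Dex below CI, against 23.1% of all genes. Dex lay above CI without overlap in 14 members, against 4524 of all 18193 genes. The genes called lower were Mrps22 (-0.71 ± 0.13, limma adjusted p = 0.00229), Mrps25 (-0.67 ± 0.09, adjusted p = 0.000402) and Mrpl20 (-0.51 ± 0.14, adjusted p = 0.0195), all of which were also called lower in TNF against the same CI arrays. Mrpl20 was not called without either CI array or without Dex replicate 1 or 2 (adjusted p from 0.0547 to 0.141), nor with quantile normalization (-0.48). For Mrps25, the second probe set gave -0.25 and the third 0.03 in this comparison, and with the mean of its probe sets it was not called. Of the cell type markers, Slc2a4 (-0.65, of 7 adipocyte markers) and Dlk1 (-0.70, of 5 preadipocyte or fibroblast markers) were called lower. Cd14 (0.98, of 8 macrophage or leukocyte markers) was called higher. The adipocyte list had a median of 0.01, with 3 of 7 below zero. The preadipocyte or fibroblast list had a median of -0.41, with all 5 below zero. The macrophage or leukocyte list had a median of 0.08, with 3 of 8 below zero, among them Lyz2 (-0.40, not called). Dlk1 was at -0.13 where probe sets without shared sequence were preferred. The part of these markers in the result was not tested.

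Mrpl38 was the member called higher in Dex. It encodes a protein specific to mitochondria, and read 9.56 and 9.65 under CI, 9.41, 9.52 and 9.41 under TNF and 10.13, 10.05 and 10.13 under Dex. Dex stood above both other models without overlap, by 0.50 ± 0.07 against CI (limma adjusted p = 0.000567). The value lay at the size threshold and fell under it without CI replicate 1 (0.46), Dex replicate 1 (0.49) or Dex replicate 3 (0.49). With each array centred on its median it was 0.48. Its 2 dimmer probe sets gave 0.23 and -0.01. Mrpl34, the counterpart of a very small bacterial protein, differed by 0.48 ± 0.12, also with no overlap. Mrps6 (-0.44 ± 0.07, adjusted p = 0.000767) and Mrps36 (-0.41 ± 0.10, adjusted p = 0.00924) were below zero but under the size threshold. Mrpl12 differed by -0.13 ± 0.15, Mrpl3 by 0.07 ± 0.09, Mrps2 by 0.19 ± 0.07, Mrps16 by 0.18 ± 0.12 and Mrps30 by 0.03 ± 0.08, none of which passed the test. Nearest to the subunit medians were Mrpl45 (-0.09 ± 0.10) and Mrps10 (-0.14 ± 0.12). The large-subunit median was -0.09 and the small-subunit median -0.14, a difference of 0.05.

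In TNF against Dex, 6 members (7.89%) were called lower and 0 higher, against 3.16% and 4.14% of all genes. The median difference was -0.24 against 0.01 over all genes, and 72 members (94.7%, against 48.3%) were below zero. Without a minimum size, 29 members were lower (38.2%, against 10.8% of all genes). TNF lay below Dex without overlap in 40 members, against 17.9% of all genes, and above it only in Mrps6 (0.15 ± 0.06, limma adjusted p = 0.105). When single arrays were left out the count of those called lower ran from 4, without TNF replicate 1, to 10, without TNF replicate 2. Markers of other cells moved here too. Of the 5 preadipocyte or fibroblast markers, Pdgfrb (1.34), Dlk1 (0.83) and Pdgfra (0.72) were higher in TNF than in Dex, Dlk1 at -0.16 where probe sets without shared sequence were preferred and Pdgfra not called in several alternative fits. Of 8 macrophage or leukocyte markers, Lyz2 (0.95) was called higher and 7 were not called, with 2 of the 8 below zero. Of 7 adipocyte markers, Retn (-1.08) and Cidec (-0.91) were called lower and 5 were not called, with a list median of -0.06. The part of these markers in the result was not tested.

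Mrpl34 (chromosome 8, 71464926 to 71465753) had the largest difference. It read 9.66, 10.07 and 9.90 in TNF and 10.59, 10.69 and 10.93 in Dex, around the CI values of 10.24 and 10.28. The 3 models did not overlap, and TNF was lower than Dex by 0.86 ± 0.11 (limma adjusted p = 0.000216), or 1.81-fold. Mrpl38 was lower by 0.66 ± 0.07 (adjusted p = 3.66e-05), but by 0.25 and not called with the mean of its probe sets. Mrps35, a small-subunit protein specific to mitochondria, read 11.16 and 11.39 under CI, 10.75, 10.97 and 10.79 under TNF and 11.44, 11.40 and 11.51 under Dex. It differed by -0.62 ± 0.08 (adjusted p = 0.000338), with TNF below both other models.

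The stalk gene Mrpl12 was lower in TNF than in Dex by 0.58 ± 0.13 (limma adjusted p = 0.00912), a call lost without TNF replicate 1 (-0.42) and with the beta-actin covariate (-0.62). Mrpl50 (-0.53 ± 0.09, adjusted p = 0.00136) and Mrpl9 (-0.51 ± 0.06, adjusted p = 0.000163) lay near the size threshold. Mrpl50 fell under it without TNF replicate 1 (-0.49), TNF replicate 3 (-0.50) or Dex replicate 2 (-0.47), and with the mean of its probe sets (-0.43) or array weights (-0.47). Mrpl9 fell under it without TNF replicate 3 (-0.48) or Dex replicate 1 (-0.50), and its call was lost with the beta-actin covariate (-0.46). With quantile normalization both were under it (-0.49 and -0.47). All 3 probe sets of Mrpl9 gave like values (-0.56 to -0.46). Mrps5 (-0.49 ± 0.10) and Mrpl20 (-0.49 ± 0.12) were just under the threshold of size. Mrps22 (-0.12 ± 0.12, adjusted p = 0.545) and Mrps25 (-0.05 ± 0.08, adjusted p = 0.735) did not pass. Mrps30 differed by -0.40 ± 0.08, Mrps2 by -0.39 ± 0.06, Mrpl10 by -0.34 ± 0.07 and Mrpl44 by -0.32 ± 0.08. The large-subunit median was -0.23, near Mrpl28, and the small-subunit median -0.25, near Mrps11, a difference of 0.02.

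Across the 3 models, the group mean was lowest in TNF for 71 members, in Dex for 4 and in CI for 1, and TNF was lowest for 29.3% of all genes. The order CI over Dex over TNF held for 46 members, and for 16.3% of all genes. At least 1 of the 3 comparisons called 21 members, against 15% of all genes, and 55 were called in none.

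Other genes of mitochondrial protein synthesis were read from lists chosen for their function. Of 4 ribosome components with other names, Ptcd3, a small-subunit protein with pentatricopeptide repeats, was lower in TNF than in CI (-0.60 ± 0.10, limma adjusted p = 0.00144), and the list's median was -0.32. Of 15 translation factors, 5 were lower and 0 higher, with a median of -0.40. They were Gfm1 (-1.02 ± 0.09), which moves the ribosome along the messenger RNA, Gfm2 (-0.86 ± 0.09), which splits ribosomes after termination, Tufm (-0.73 ± 0.10), which delivers aminoacyl-tRNA, Letm1 (-0.85 ± 0.09), an inner membrane protein, and Tsfm (-0.64), the exchange factor of Tufm, named after its value was seen. With the mean of all probe sets of a gene, Ptcd3, Gfm2, Letm1, Tsfm and Tufm were not called, and Gfm1 was at -0.35 and not called where probe sets without shared sequence were preferred.

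Of 16 mitochondrial aminoacyl-tRNA synthetases, 3 were lower in TNF than in CI, with a median of -0.24, namely Mars2 (-0.80 ± 0.13), Tars2 (-0.68 ± 0.08) and Yars2 (-0.61 ± 0.12), the last not without CI replicate 2 (-0.55, limma adjusted p = 0.051) and Mars2 not with the mean of its probe sets (-0.40). Of 24 ribosome assembly factors, 2 were lower, with a median of -0.19. These were Tfb1m (-0.96 ± 0.09), which methylates small-subunit RNA, and the GTPase Noa1 (-0.63 ± 0.08). Of 15 genes for copying and transcribing mitochondrial DNA, the elongation factor Tefm (-0.82 ± 0.12) and Mterf2 (-0.79 ± 0.10) were lower, with a median of -0.12. Of 22 protein import genes, 6 were lower and the median was -0.35. They included both subunits of the peptidase that removes import signals, Pmpcb (-0.75 ± 0.09) and Pmpca (-0.61 ± 0.08), the outer membrane channel Tomm40 (-0.65 ± 0.12) and the chaperone Timm9 (-0.71 ± 0.14). The Timm9 value turned to 0.19 where probe sets without shared sequence were preferred. The import count ran from 4 to 9 when single arrays were left out.

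Of 17 regulators of mitochondrial biogenesis, 2 were lower in TNF than in CI, the corepressor Nrip1 (-1.13 ± 0.21) and the coactivator Ppargc1a (-0.68 ± 0.13), and the median was -0.02. Of the 44 genes with cytosolic ribosomal protein symbols, Rps25 was lower (-0.74 ± 0.12) and 0 were higher, with a median of 0.07. This list includes Rps19bp1, which encodes a protein that binds a ribosomal protein and is not one itself. Without it, a choice made after seeing the data, the 43 other genes held the same call and a median of 0.07. None of these lists held a gene called higher in TNF than in CI.

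In Dex against CI, the same lists held few calls. Among them Tfb1m (-0.56 ± 0.09), Mterf2 (-0.50 ± 0.10), the import motor subunit Pam16 (-0.54 ± 0.13) and Rps25 (-0.99 ± 0.12) were lower, and Tfb2m (0.72 ± 0.09), which starts mitochondrial transcription, and the coactivator Ppargc1b (0.58 ± 0.09) were higher. The calls of Mterf2, Pam16 and Tfb1m were lost without Dex replicate 2 (-0.44, -0.45 and -0.48), and that of Ppargc1b without CI replicate 1 (0.47). Mterf2 was also lost with quantile normalization (-0.47), array weights (-0.49), the beta-actin covariate (-0.50) and without CI replicate 2 (-0.47). Pam16 was also lost with quantile normalization (-0.49) and without CI replicate 1 (-0.58) or 2 (-0.50). Tfb1m was also lost with the mean of its probe sets (-0.50) and where probe sets without shared sequence were preferred (-0.44). The translation factors had a median of -0.09 and the synthetases 0.08, with 0 called in either. In TNF against Dex, 4 of 16 synthetases were lower, namely Ears2 (-0.59 ± 0.09), Tars2 (-0.55 ± 0.07), Hars2 (-0.52 ± 0.06) and Mars2 (-0.52 ± 0.12), with a median of -0.38 and all 16 below zero. Lower too were Tufm (-0.64 ± 0.09), Letm1 (-0.56 ± 0.08), Gfm1 (-0.52 ± 0.08), Tfb2m (-0.77 ± 0.08), the mitochondrial DNA polymerase Polg (-0.63 ± 0.08), Timm9 (-0.64 ± 0.12), the assembly helicase Ddx28 (-0.55 ± 0.08) and Ptcd3 (-0.52 ± 0.09). Without TNF replicate 1, Letm1 (-0.49), Gfm1 (-0.45) and Ptcd3 (-0.43) were not called, Mars2 was not called without TNF replicate 2 (-0.44), and Hars2 was not called without Dex replicate 1 (-0.49). With the mean of probe sets, Tufm, Letm1, Gfm1, Ptcd3, Timm9, Polg, Ears2, Hars2 and Mars2 were not called. All 24 assembly factors were below zero there, with a median of -0.23. The list of cytosolic ribosomal protein symbols had a median of -0.02, with 0 called.

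**Figure D4:**
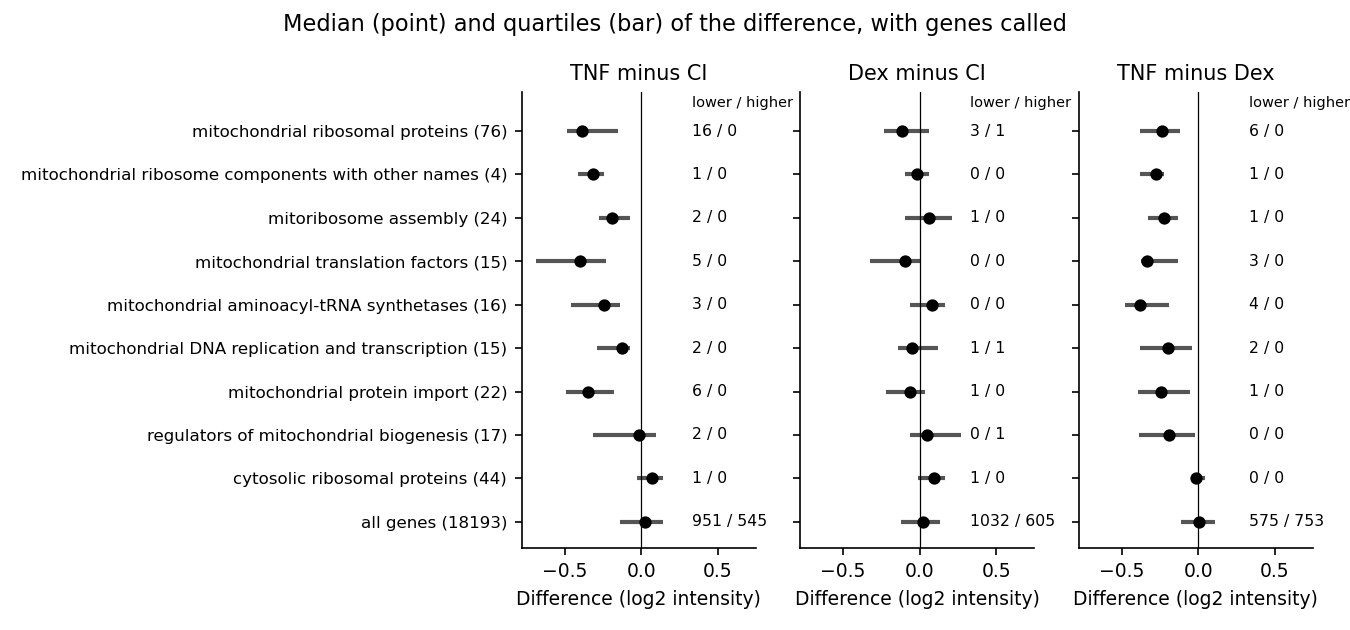
Median (point) and quartiles (bar) of the difference in log2 intensity (x axis) for each list of genes (rows, with the number of genes measured) in the 3 comparisons; the figures at the right of each panel are the genes called lower and higher. In TNF minus CI the mitochondrial ribosome sits at -0.39 and the list of cytosolic ribosomal protein symbols at 0.07, and in Dex minus CI most medians are near 0.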

How the data were processed

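Total RNA of 8 samples (2 CI, 3 TNF, 3 Dex, grouped by sample title) was hybridised to Affymetrix whole-genome mouse arrays. The authors deposited 1 intensity per probe set on a linear scale. Per their methods, arrays of this type were background-corrected and normalized by RMA in affyPLM, but the sources used here do not say whether the deposited intensities are RMA values taken out of the log scale. The analysis had been planned for log2 values, so log2 was taken, with no pseudocount, and limma was used as planned. Arrays have no read depth; their number limits the precision. The labels do not say whether replicates were grown separately, so p-values cover a spread between samples that could be technical.

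Of 45101 probe sets, 64 controls were left out. GEO's platform annotation gave 34958 probe sets 1 symbol, 932 several and 9211 none, and 18193 genes remained after the brightest probe set was kept for each. All 76 members matched the RefSeq gene table (GRCm38.p6) by gene ID. The 3 groups were fitted together with limma 3.58.1 in R 4.3.3 (lmFit, eBayes), by its two-sided moderated test, with Benjamini-Hochberg adjustment over all 18193 genes in each comparison. Calls needed an adjusted p under 0.05 and a difference over 0.5. The members, the lists and the motifs were chosen with earlier results of these data known. Genes named were, per comparison, up to 8 called members in each direction with the largest difference, 14 members whatever their values (Mrpl3, Mrpl10, Mrpl12, Mrpl41, Mrpl44, Mrps2, Mrps5, Mrps12, Mrps16, Mrps18a, Mrps22, Mrps30, Mrps35 and Mrps36), the brightest and the dimmest member, the member nearest to each subunit's median, and up to 4 called genes of each list. Names outside this rule are marked.

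Alternatives were quantile and median scaling, leaving out dim genes, averaging or otherwise choosing probe sets, the replicate number as a block, fitting 2 groups at a time, eBayes with trend and robust, array weights, other thresholds, the beta-actin covariate and leaving out each array. On simulated data, with 18193 genes in the step, the fit called 91% of 100 genes given a TNF minus CI difference of 0.75 and 100% of 100 given 1.5. The simulated noise was drawn separately for each gene, whereas the members moved together from array to array. Both planted differences were larger than the members' median, so recovery of differences of that size was not measured. Figures were drawn with Python 3.11.15.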

Additional observations from a re-analysis of the deposited data

How the results depend on the processing

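The count of members called in TNF minus CI (16) was 10 with quantile normalization or the mean of all probe sets of a gene, 29 with each array centred on its median, 46 with no minimum difference, and 10 to 30 when single arrays were left out. The 10 calls under quantile normalization were all among the 16, as were 9 of the 10 with the mean of probe sets. The median difference of -0.39 moved to -0.28 with the mean of probe sets, and over every alternative it lay between -0.45 and -0.28. In Dex minus CI the count (4) was 18 with no minimum difference and 3 to 5 without single arrays. In TNF minus Dex the count (6) was 29 with no minimum difference and 4 to 10 without single arrays. For settings other than the main fit and no minimum difference, the share of all genes called is not given. Both other medians kept their sign under every alternative run (-0.15 to -0.04 and -0.31 to -0.18). The difference between the large-subunit and small-subunit medians had no settled sign. In TNF minus CI (-0.02) it was 0.035 where probe sets without shared sequence were preferred, 0.0088 with Mrps30 and Mrps18a in the large subunit and Mrps36 left out, and -0.047 to 0.016 without single arrays. In Dex minus CI (0.05) it was -0.026 with the mean of probe sets, 0.022 with the replicate block, and -0.0047 to 0.053 without single arrays. In TNF minus Dex (0.02) it was -0.011 with array weights, -0.017 with the beta-actin covariate, and 0.0031 to 0.0602 without single arrays. For single named members, 1218 values kept direction and side of the threshold, 33 gained and 33 lost a call, and 16 changed sign, none of them called in either fit. Mrpl55 and Mrps16 in TNF minus CI were at 0.033 and 0.048 with quantile normalization, and at -0.11 to 0.063 and -0.15 to 0.074 without single arrays. In Dex minus CI, Mrpl44 was at 0.0057 where probe sets without shared sequence were preferred and at -0.13 to 0.0008 without single arrays, and Mrps10 at 0.071 with the mean of probe sets and at -0.28 to 0.013 without single arrays. Mrps30 in that comparison was at -0.002 with the replicate block, -0.0019 with array weights and -0.0145 to 0.0605 without single arrays. In TNF minus Dex, Mrps6 was at -0.024 where probe sets without shared sequence were preferred, and without single arrays Mrps22 was at -0.23 to 0.0052 and Mrps36 at -0.14 to 0.016. Causes were not tested, except that leaving out the minimum difference can only add calls.

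Whether the replicate numbers pair the samples was not settled. Same-number deviations from the group means correlated between -0.09 and 0.33, and different-number ones between -0.38 and 0.28. The deviations of the 2 CI arrays mirror each other, so correlations with CI cannot show pairing. With the replicate number as a block, 21 members were called in TNF minus CI, 5 in Dex minus CI and 6 in TNF minus Dex. The number of arrays limits every value. The files used here give no detection measure, so signal over background was not tested.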
